A study of Mus musculus with 6 samples.

Results

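The 45 genes described here encode nucleolar factors that build ribosomes. They were taken by name from the deposited table of gene expression and grouped by role into RNA polymerase I (6 genes), small nucleolar ribonucleoproteins (snoRNPs, 9 genes), processing of the small subunit (13 genes), processing of the large subunit (12 genes), and nucleolar chaperones and RNA-binding proteins (5 genes). All 45 were found among the 41386 genes listed, and all 45 were among the 11465 genes tested. Thymocytes of the DN4 stage, the last CD4- CD8- stage before the double-positive stage, were isolated from adult C57BL/6 mice of the genotype Gata3(g/+), heterozygous for the g allele, a GFP reporter placed in the Gata3 gene. The groups were GFP-positive and GFP-negative DN4 cells, with 3 libraries each, and cells of both groups carry the g allele. Total RNA depleted of ribosomal RNA was sequenced, so that the ribosomal RNA itself, the product of this pathway, was not measured.

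Ribosomes are assembled in the nucleolus around a long precursor RNA transcribed by RNA polymerase I. SnoRNPs guide the chemical modification and some of the cuts of the precursor, and large assemblies of processing factors fold and trim it into the RNAs of the small and the large subunit. Growing and dividing cells need many new ribosomes, and many genes of the pathway are known targets of the transcription factor Myc. In the thymus, cells expand after beta selection, and most leave the cell cycle during the double-positive stage.

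Expression was given as FPKM, fragments scaled to gene length and to the fragments of the library, which sets out levels per length and relative to all other RNA of a library. The depth of the libraries is unknown, because the sources used here state no read totals, and no counting interval can be given. Libraries correlated at r = 0.910 to 0.934 within GFP-positive cells, 0.865 to 0.907 within GFP-negative cells and 0.754 to 0.852 between groups (across genes, which are not independent replicates). Nothing in the labels ties the libraries to different mice. The p-values therefore rest on library-to-library spread, part of which may be technical. In bulk RNA, fewer cells of a type and less RNA per cell cannot be told apart.

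Of the 45 nucleolar factors, 41 were higher in GFP-positive than in GFP-negative cells, 1 was lower and 3 did not pass the test (limma, adjusted p below 0.05 over all genes). Among all genes tested, 24.4% were called higher and 29.8% lower by the same rule. Below, rose and fell mean higher and lower in GFP-positive than in GFP-negative cells, with no order in time. The median log2 fold change of the factors was 1.09, against -0.08 for all genes tested. An increase of at least 2-fold on the log2(FPKM + 0.5) scale was called for 24 of the 45, against 8.59% of all genes. In 42 of the factors all GFP-positive libraries lay above all GFP-negative libraries, an order seen in 28.7% of genes tested, and in 1 factor, Wdr12, they lay below, as in 35.1% of genes tested. Quantile normalization moved the median of all genes up by 0.13, to 0.06, and gave 3494 higher and 2846 lower genes, where the values as deposited gave 2797 higher and 3419 lower genes. Under quantile normalization the factors still had 41 higher and 1 lower gene, with a median log2 fold change of 1.13. In the authors' deposited table of all 6 libraries, 40 of the 45 factors had a q below 0.05, as did 48.9% of the genes tested.

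**Figure D1:**
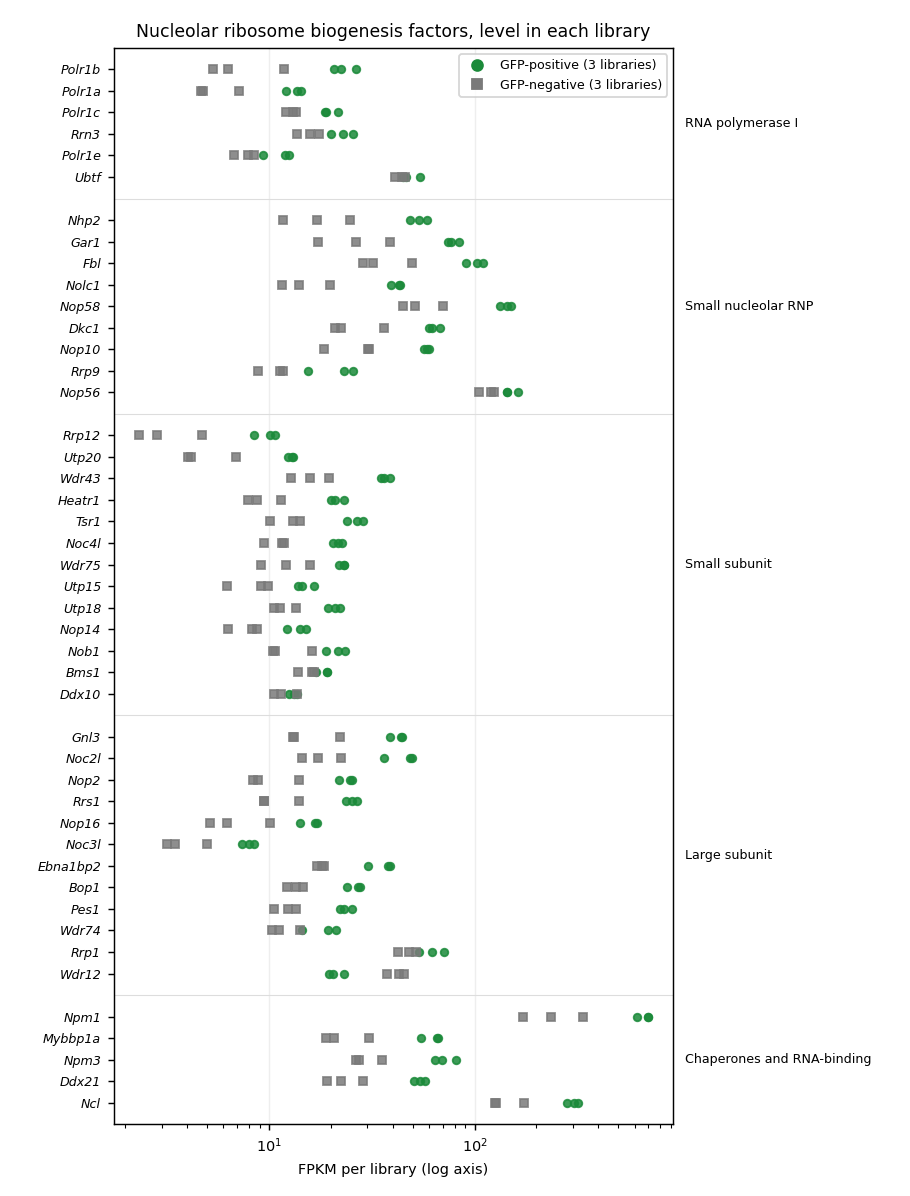
FPKM (log axis) of each of the 45 factors in 3 GFP-positive libraries (green circles) and 3 GFP-negative libraries (grey squares), by role. Green points lie to the right of grey points in 42 rows, Wdr12 shows the opposite order, and Ubtf and Ddx10 overlap.

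Of the 6 RNA polymerase I genes, 5 rose and 1 did not pass, with a median log2 fold change of 0.56. Over all genes tested, 24.4% were higher, and 28.7% had every GFP-positive library above every GFP-negative library. Polr1b, which encodes the second largest subunit of the enzyme, had 20.7, 26.4 and 22.4 FPKM in GFP-positive libraries 1 to 3, against 6.31, 5.34 and 11.8 FPKM in GFP-negative libraries 1 to 3. The groups did not overlap, and GFP-negative library 3 was the highest of its group. The log2 fold change was 1.58 ± 0.26 (SE; limma, adjusted p = 0.00143). Polr1a, the gene of the largest subunit, stood at 12.1, 14.3 and 13.6 FPKM in GFP-positive cells and at 4.77, 4.64 and 7.15 FPKM in GFP-negative cells, a log2 fold change of 1.22 ± 0.18 (adjusted p = 0.000652). The groups did not overlap here either, and GFP-negative library 3 was again the highest of its group.

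Smaller increases were measured for the remaining components. Polr1c, a subunit shared with RNA polymerase III, had 18.9, 18.7 and 21.5 FPKM in GFP-positive and 13.5, 12.1 and 13.1 FPKM in GFP-negative libraries (log2 fold change 0.59 ± 0.12, adjusted p = 0.00286). Rrn3, the initiation factor that brings the polymerase to the ribosomal DNA promoter, averaged 22.8 ± 2.81 FPKM in GFP-positive and 15.7 ± 1.92 FPKM in GFP-negative cells (SD, n = 3 each; log2 fold change 0.53, limma adjusted p = 0.0114). Polr1e, a subunit that takes part in initiation, averaged 11.2 ± 1.67 FPKM in GFP-positive and 7.72 ± 0.892 FPKM in GFP-negative cells (log2 fold change 0.51, limma adjusted p = 0.0215). The calls of Polr1e and Rrn3 depended on the libraries: that of Polr1e was lost in 5 of 16 alternatives (adjusted p up to 0.193) and that of Rrn3 without GFP-positive library 2 (adjusted p = 0.0535). Ubtf, the architectural factor that coats active ribosomal DNA, had the highest level of these genes in both groups, with 45.1, 46.4 and 54.3 FPKM in GFP-positive and 41.1, 44.4 and 45.8 FPKM in GFP-negative libraries. The groups of Ubtf overlapped, and it did not pass the test (log2 fold change 0.15 ± 0.12, limma adjusted p = 0.314). The level of Ubtf was 3.73, 3.25 and 3.99 times that of Polr1a in GFP-positive libraries and 8.61, 9.57 and 6.41 times in GFP-negative libraries, without overlap (exact permutation test, two-sided, p = 0.10, the smallest that 3 against 3 libraries allow). The pairs of genes whose ratios are given were chosen after their values were seen.

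All 9 snoRNP genes rose in GFP-positive cells, against 24.4% of all genes tested, with a median log2 fold change of 1.38. The H/ACA class of snoRNPs, which guides pseudouridylation, has a core of dyskerin (Dkc1, the pseudouridine synthase), Nhp2, Nop10 and Gar1. Nhp2, an RNA-binding core protein, showed the largest change of all 45 factors. Its levels were 48.7, 58.6 and 53.9 FPKM in GFP-positive libraries, against 11.7, 17.0 and 24.9 FPKM in GFP-negative libraries (log2 fold change 1.62 ± 0.24, limma adjusted p = 0.000871). Gar1 had 77.0, 74.6 and 84.3 FPKM in GFP-positive and 17.3, 26.6 and 38.6 FPKM in GFP-negative libraries (log2 fold change 1.57 ± 0.25, adjusted p = 0.00134). In both genes every GFP-positive library lay above every GFP-negative library, and GFP-negative library 3 was again the nearest. Dkc1 stood at 60.2, 67.6 and 62.2 FPKM in GFP-positive and at 20.9, 22.5 and 36.2 FPKM in GFP-negative libraries (log2 fold change 1.28). Nop10, the smallest core protein, stood at 56.8, 58.6 and 60.0 FPKM in GFP-positive and at 18.5, 30.6 and 30.4 FPKM in GFP-negative libraries (log2 fold change 1.16). The genes of the H/ACA core thus had log2 fold changes between 1.16 and 1.62. All were without overlap, with GFP-positive libraries above, an order seen in 28.7% of genes tested.

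Those genes of the box C/D core, which guides methylation of the ribose, that are among the 45 factors had unequal fold changes. Fbl, the methyltransferase fibrillarin, had 90.3, 103 and 109.8 FPKM in GFP-positive and 28.8, 32.0 and 49.8 FPKM in GFP-negative libraries (log2 fold change 1.48 ± 0.20, limma adjusted p = 0.000473). Nop58, a scaffold protein of the core, had 133, 151 and 144 FPKM in GFP-positive and 44.7, 51.2 and 70.1 FPKM in GFP-negative libraries (log2 fold change 1.38 ± 0.17, adjusted p = 0.000271). Nop56, its paralogue and partner in the core, stood at 124, 105 and 120.3 FPKM in GFP-negative libraries, against 144, 144 and 163 FPKM in GFP-positive libraries. Its groups did not overlap, and the log2 fold change was 0.37 ± 0.12 (adjusted p = 0.0265), and the call was lost in 6 of 16 alternatives (adjusted p up to 0.109). Nop56 was not called in the authors' deposited table for 6 libraries (q = 0.179). Its exons share bases with snoRNA genes on the same strand, among them 100 with Gm24451. Exons of Nop58 share 84 bases with the snoRNA gene Gm26293. How reads from the shared bases were assigned is not stated, and the part of these overlaps was not tested. The ratio of Nop56 to Nop58 was 1.08, 0.956 and 1.13 in GFP-positive libraries. In GFP-negative libraries it was 2.77, 2.06 and 1.71, without overlap (exact permutation p = 0.10, the smallest possible). The pair was chosen after its values were seen, so this p-value adds no support. The ratio of Nop58 to Fbl stood at 1.48, 1.47 and 1.31 in GFP-positive and at 1.55, 1.60 and 1.41 in GFP-negative libraries and overlapped (exact permutation p = 0.30).

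The remaining snoRNP genes rose too. Nolc1, a nucleolar chaperone that binds both classes of snoRNP, had 39.3, 43.5 and 42.7 FPKM in GFP-positive and 11.5, 14.0 and 19.8 FPKM in GFP-negative libraries (log2 fold change 1.47). Rrp9, a protein of the U3 snoRNP that takes part in early cleavage, had 15.5, 23.2 and 25.5 FPKM in GFP-positive and 8.88, 11.7 and 11.2 FPKM in GFP-negative libraries (log2 fold change 0.96). For Rrp9 the spread lay in the GFP-positive group, where library 1 was lowest.

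**Figure D2:**
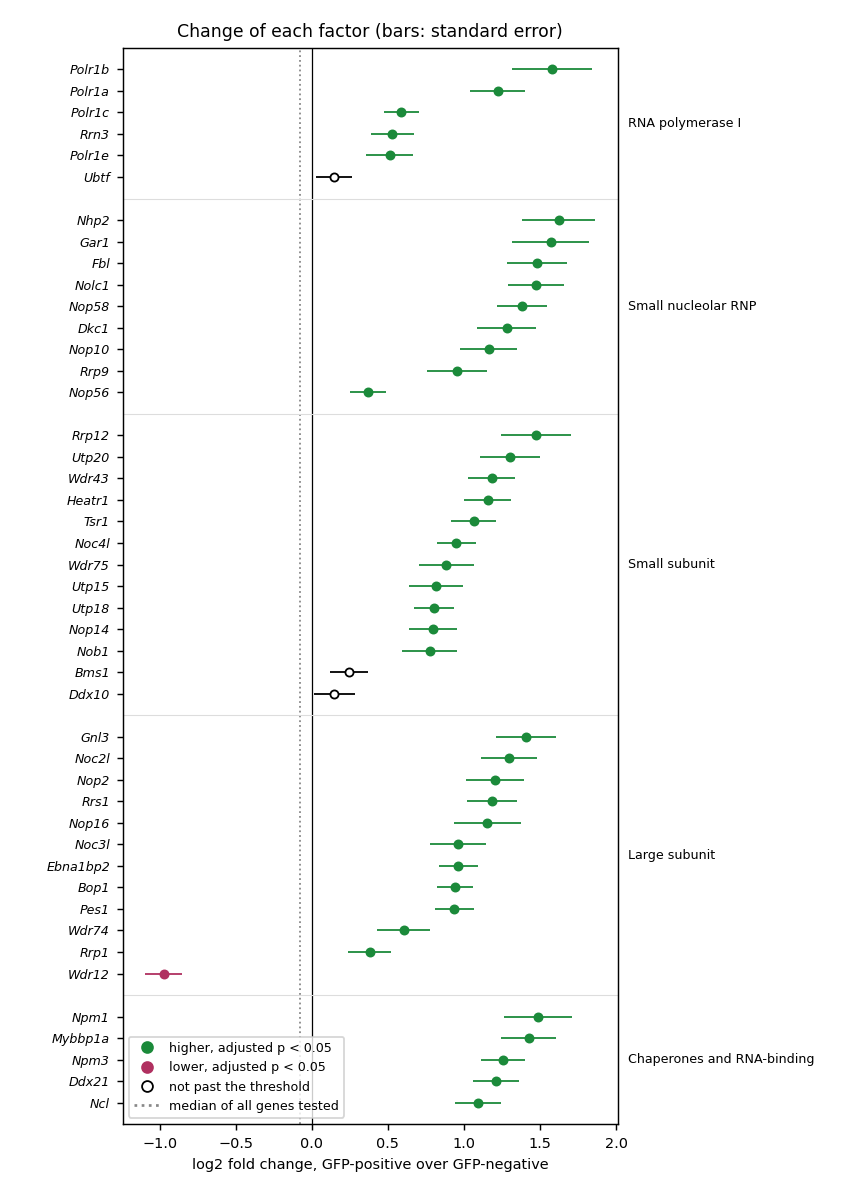
Log2 fold change of GFP-positive over GFP-negative cells for each factor on the log2(FPKM + 0.5) scale, with its standard error from limma, by role. Filled points passed an adjusted p of 0.05, open points (Ubtf, Bms1 and Ddx10) did not, Wdr12 is the single factor below 0, and the dotted line marks the median of all genes tested at -0.08.

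Of the 13 factors of small subunit processing, 11 rose and 2 did not pass, with a median log2 fold change of 0.88. Among all genes tested, 24.4% rose. Rrp12, which helps export and maturation of the pre-ribosome, was the least abundant of the class in GFP-negative cells and changed most. Its levels were 8.44, 10.7 and 10.1 FPKM in GFP-positive libraries, against 2.33, 2.85 and 4.69 FPKM in GFP-negative libraries (log2 fold change 1.48 ± 0.23, limma adjusted p = 0.000861). Utp20, a large scaffold of the small subunit processome, had 12.3, 13.0 and 13.1 FPKM in GFP-positive and 4.17, 4.04 and 6.91 FPKM in GFP-negative libraries (log2 fold change 1.30 ± 0.20, adjusted p = 0.000756). Wdr43, a subunit of the processome module that binds the nascent precursor, was the most abundant of the class, with 35.1, 38.7 and 36.3 FPKM in GFP-positive and 12.8, 15.8 and 19.6 FPKM in GFP-negative libraries (log2 fold change 1.18 ± 0.15, adjusted p = 0.000403). None of these had overlapping groups, and all GFP-positive libraries lay above, as in 28.7% of genes tested.

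The module that joins transcription to early processing also holds Heatr1, Utp15 and Wdr75. Heatr1 had 20.0, 23.1 and 21.0 FPKM in GFP-positive and 7.92, 8.78 and 11.5 FPKM in GFP-negative libraries (log2 fold change 1.16), and its exons share 155 bases with Lgals8 on the opposite strand, which fell (log2 fold change -1.05). Utp15 and Wdr75 had log2 fold changes of 0.81 and 0.88. Further factors of the small subunit rose as well. Noc4l, a partner of Nop14, had a log2 fold change of 0.95, and Nop14 itself one of 0.80. Utp18, a processome subunit, had one of 0.80, and Nob1, the endonuclease of the last cut, one of 0.78. Tsr1, a late assembly factor related to GTPases, averaged 26.4 ± 2.31 FPKM in GFP-positive and 12.4 ± 2.07 FPKM in GFP-negative cells (SD, n = 3 each; log2 fold change 1.07). Tsr1 shares 1240 exon bases with Srr on the opposite strand, which averaged 6.59 ± 0.278 FPKM in GFP-positive and 5.14 ± 0.991 FPKM in GFP-negative cells and did not pass the test (limma adjusted p = 0.104).

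Bms1 and Ddx10 were the small subunit factors that did not pass. Bms1, a GTPase of the processome, had 16.9, 19.2 and 19.2 FPKM in GFP-positive and 13.9, 16.3 and 16.5 FPKM in GFP-negative libraries. The groups did not overlap, yet it did not pass (log2 fold change 0.24 ± 0.12, limma adjusted p = 0.125), while under quantile normalization and upper quartile scaling it did (log2 fold change 0.32 and 0.30, adjusted p = 0.0264 and 0.0327). Ddx10, a helicase that releases a snoRNA from the precursor in yeast, had 12.5, 13.3 and 13.7 FPKM in GFP-positive and 11.4, 10.5 and 13.7 FPKM in GFP-negative libraries, with overlap (log2 fold change 0.15 ± 0.13, limma adjusted p = 0.374).

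Large subunit factors gave 11 increases and the single decrease of the whole set, where 24.4% of all genes tested were higher and 29.8% lower. Gnl3, the GTP-binding protein nucleostemin of proliferating cells, had 38.8, 44.5 and 44.0 FPKM in GFP-positive and 13.1, 13.2 and 22.1 FPKM in GFP-negative libraries (log2 fold change 1.41 ± 0.20, limma adjusted p = 0.000567). Noc2l, a transport and assembly factor, had 36.1, 48.3 and 49.5 FPKM in GFP-positive and 14.4, 17.3 and 22.3 FPKM in GFP-negative libraries (log2 fold change 1.29 ± 0.18, adjusted p = 0.000587). It shares 598 exon bases with Samd11 on the opposite strand, which rose too (log2 fold change 1.04) from a lower level. Nop2, which methylates a cytosine of the large subunit RNA, had 21.8, 24.9 and 25.5 FPKM in GFP-positive and 8.38, 8.87 and 13.9 FPKM in GFP-negative libraries (log2 fold change 1.20 ± 0.19, adjusted p = 0.000889). In each of these genes GFP-negative library 3 stood above the other libraries of its group and below all GFP-positive libraries. Rrs1, Nop16, Noc3l and Ebna1bp2, which act early in the assembly of the large subunit, had log2 fold changes of 1.18, 1.15, 0.96 and 0.96.

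Rrp1 and Wdr74 rose least. Rrp1, an early assembly factor and the most abundant gene of the class, had 53.4, 61.9 and 71.3 FPKM in GFP-positive and 42.2, 48.2 and 52.2 FPKM in GFP-negative libraries (log2 fold change 0.38 ± 0.14, limma adjusted p = 0.0439). Its call was lost in 7 of 16 alternatives (adjusted p up to 0.163). Wdr74, a cofactor of the remodelling of the pre-ribosome, averaged 18.3 ± 3.47 FPKM in GFP-positive and 11.8 ± 1.98 FPKM in GFP-negative cells (log2 fold change 0.60, limma adjusted p = 0.0171), and its call was lost without GFP-positive library 2, GFP-positive library 3, GFP-negative library 1 or GFP-negative library 2 (adjusted p up to 0.0699).

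Wdr12 was lower in GFP-positive cells, while its partners were higher. Pes1, Bop1 and Wdr12 encode the PeBoW complex, which is needed for the maturation of the large subunit RNAs and is known to work as an assembly of all its subunits. Pes1 had 25.4, 22.2 and 23.3 FPKM in GFP-positive and 10.6, 12.3 and 13.5 FPKM in GFP-negative libraries (log2 fold change 0.94 ± 0.13, limma adjusted p = 0.000497). Bop1 had 24.1, 27.0 and 27.8 FPKM in GFP-positive and 12.2, 13.6 and 14.6 FPKM in GFP-negative libraries (log2 fold change 0.94 ± 0.12, adjusted p = 0.000378). The groups did not overlap in either gene, and the ratio of Pes1 to Bop1 averaged 0.905 in GFP-positive and 0.900 in GFP-negative libraries, with overlap (exact permutation p = 1.0). Wdr12 had 20.6, 19.5 and 23.2 FPKM in GFP-positive libraries, against 37.5, 45.3 and 42.9 FPKM in GFP-negative libraries, a log2 fold change of -0.97 ± 0.12 (limma adjusted p = 0.000345). The level of Wdr12 was 0.831, 0.793 and 0.910 times the mean of Pes1 and Bop1 in GFP-positive libraries. In GFP-negative libraries it was 3.29, 3.50 and 3.06 times that mean (exact permutation p = 0.10, the smallest possible). This ratio was chosen after the values were seen, so its separation was known beforehand and its p-value adds no support. GFP-negative library 3, which stood high for most of the factors, lay within the range of its group for Wdr12.

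The decrease of Wdr12 passed the test in each of the 16 alternatives, and its q was 0.00019 in the authors' deposited table for 6 libraries. The gene spans chr1:60069785-60098645 (mm10, minus strand). Its exons share 61 bases with Carf, the gene of a transcription factor on the opposite strand. Carf was lower as well, at 2.50 ± 0.293 FPKM in GFP-positive cells, against 6.20 ± 0.838 FPKM in GFP-negative cells (SD, n = 3 each; log2 fold change -1.15 ± 0.17, limma adjusted p = 0.000758). Exons of Bop1 and Pes1 also overlap genes on the opposite strand. Bop1 shares 50 bases with Mroh1, which fell (log2 fold change -0.92 ± 0.15, limma adjusted p = 0.000969). Pes1 shares 138 bases with 4930556J24Rik, listed at 0 to 0.267 FPKM. The sources used here do not state whether strand was used in counting. Reads from the shared bases then cannot be told apart, and the part of the overlaps in the results was not tested. Carf was examined after its values were seen.

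**Figure D3:**
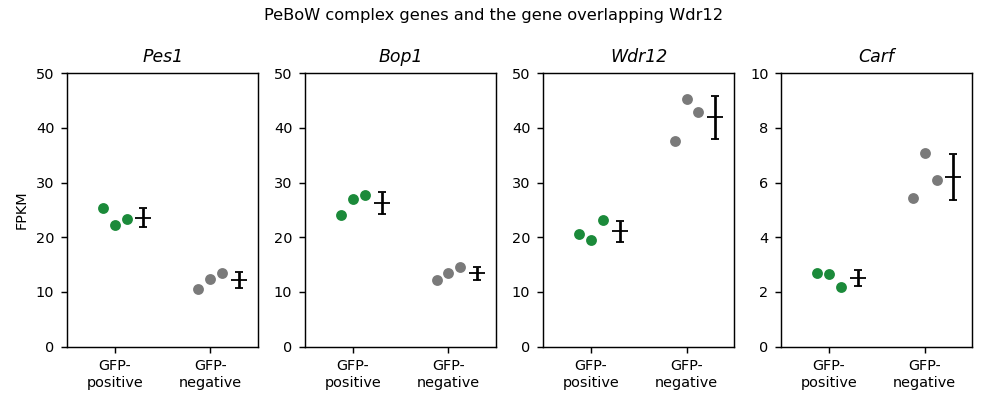
FPKM of Pes1, Bop1, Wdr12 and the overlapping gene Carf in each library, GFP-positive left and GFP-negative right, with mean and SD (n = 3) beside the points; the axis of Carf runs to a lower maximum. Pes1 and Bop1 are higher and Wdr12 and Carf lower in GFP-positive cells, without overlap.

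Each of the 5 nucleolar chaperones and RNA-binding proteins rose by more than 2-fold, where an increase of at least 2-fold was called for 8.59% of all genes tested. Npm1 and Ncl had the highest levels of the whole set. Npm1, nucleophosmin, the chaperone of the outer nucleolus, had 617, 697 and 696 FPKM in GFP-positive and 171, 235 and 337 FPKM in GFP-negative libraries. The log2 fold change was 1.49 ± 0.22 (limma, adjusted p = 0.000795), and the groups did not overlap. Npm3, a smaller relative of Npm1, had 64.1, 69.6 and 81.0 FPKM in GFP-positive and 26.6, 27.4 and 35.5 FPKM in GFP-negative libraries (log2 fold change 1.26 ± 0.15, adjusted p = 0.000238). For Npm3 the authors' deposited tables gave a q of 0.0403 with 6 libraries and of 0.157 with 4. Mybbp1a, which binds RNA polymerase I and Myb, had 54.9, 65.9 and 66.7 FPKM in GFP-positive and 18.9, 20.7 and 30.5 FPKM in GFP-negative libraries (log2 fold change 1.42 ± 0.18, adjusted p = 0.000361). In neither gene did the groups overlap, and GFP-negative library 3 was the highest of its group in both. Ncl, nucleolin, the abundant RNA-binding protein of the dense nucleolus, had 281, 304 and 317 FPKM in GFP-positive and 125, 127 and 175 FPKM in GFP-negative libraries (log2 fold change 1.09). Ddx21, a helicase that joins transcription and snoRNA-guided modification, had 50.8, 57.4 and 54.3 FPKM in GFP-positive and 19.2, 22.5 and 28.6 FPKM in GFP-negative libraries (log2 fold change 1.21). The range of levels across the 45 factors was wide, from a mean over 6 libraries of 5.92 FPKM (Noc3l) to 459 FPKM (Npm1), with a median of 19.3, against 9.84 FPKM for all genes tested.

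Other genes of the pathway were read from a list of 141 that held none of the 45. Of these, 139 were found, Riok2 and Exosc6 were not analysed here, and Zfp593 was below the minimum for testing. Of 138 tested, 89 rose, 3 fell and 46 did not pass, with a median log2 fold change of 0.58. By the same rule 24.4% of all genes tested were higher and 29.8% lower, to be read beside the counts that follow. Genes of snoRNP assembly rose in 8 of 10 cases, of the small subunit in 31 of 43, of the large subunit in 31 of 54, of the exosome and other nucleolar functions in 14 of 20 and of RNA polymerase I in 5 of 11. Nat10, which acetylates cytidines of the small subunit RNA, had 27.3, 35.3 and 32.9 FPKM in GFP-positive and 9.30, 7.80 and 15.6 FPKM in GFP-negative libraries (log2 fold change 1.56). Lyar, a nucleolar zinc finger protein, had a log2 fold change of 1.49, Rrp1b, a paralogue of Rrp1, one of 1.48, and Mdn1, the giant ATPase that strips factors from the large subunit, one of 1.45. Rrp1b thus changed by more than Rrp1 on the same scale, a difference that was not tested.

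The 3 decreases among the other genes were Kri1, Taf1c and Riok3. Kri1, a processing factor known from yeast, had 8.77, 9.75 and 11.9 FPKM in GFP-positive and 21.9, 18.6 and 18.2 FPKM in GFP-negative libraries (log2 fold change -0.92 ± 0.15, limma adjusted p = 0.000931). Taf1c, a subunit of the selectivity factor at the ribosomal DNA promoter, averaged 10.7 ± 1.93 FPKM in GFP-positive and 16.2 ± 3.48 FPKM in GFP-negative cells (log2 fold change -0.57, limma adjusted p = 0.0279). Riok3, a kinase of late small subunit assembly, averaged 12.4 ± 0.809 FPKM in GFP-positive and 17.5 ± 1.51 FPKM in GFP-negative cells (log2 fold change -0.48, limma adjusted p = 0.00904). The other subunits of the selectivity factor on the list, Taf1a and Taf1b, did not pass, with log2 fold changes of -0.43 and -0.09.

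**Figure D4:**
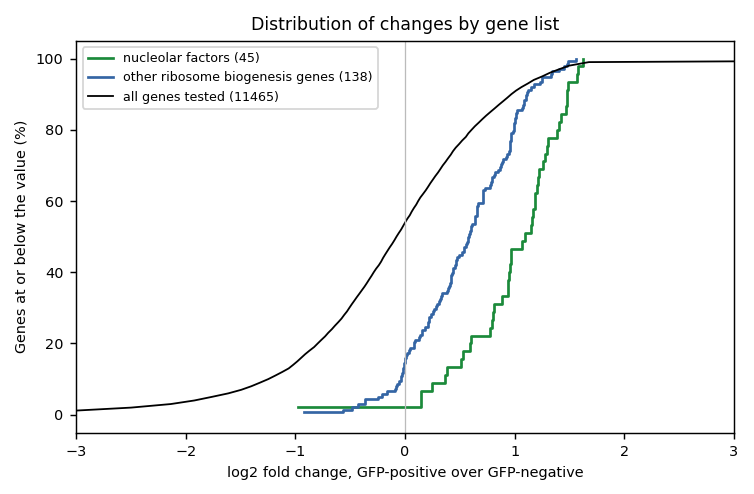
Share of genes (percent) with a log2 fold change at or below the value on the horizontal axis, for the 45 nucleolar factors, 138 other ribosome biogenesis genes and 11465 genes tested; the axis is limited to 3 in either direction. The curve of the nucleolar factors lies to the right, with a median of 1.09 against 0.58 and -0.08.

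Within each group, 1 library stood apart for most of the factors. Averaged over the 45 factors, the log2(FPKM + 0.5) level was 4.96, 5.11 and 5.14 in GFP-positive libraries 1 to 3 and 3.88, 4.02 and 4.38 in GFP-negative libraries 1 to 3. GFP-negative library 3 held the highest level of its group in 38 of 45 factors, against 43.5% of all genes tested, and GFP-positive library 1 held the lowest level of its group in 38 of 45, against 55.5% of all genes tested. Library 3 of GFP-negative cells exceeded the mean of the other 2 by a median of 0.45 log2 units over the factors and by 0.08 over all genes tested. The median coefficient of variation of the factors was 8.09% in GFP-positive and 21.1% in GFP-negative cells, against 11.8% in GFP-positive and 15.5% in GFP-negative cells for all genes tested. Without GFP-negative library 3 the median log2 fold change of the factors was 1.25, with 41 higher and 1 lower.

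GFP-negative library 3 was also the highest of its group for Myc, the proliferation list and the gamma-delta T cell list. Myc had 88.1, 104 and 106 FPKM in GFP-positive and 19.1, 24.0 and 38.2 FPKM in GFP-negative libraries. Of a list of 16 proliferation genes such as Mki67 and Top2a, 16 rose, against 24.4% of all genes tested. The mean log2 levels of this list were 6.56, 6.67 and 6.66 in GFP-positive and 4.76, 5.02 and 5.60 in GFP-negative libraries. For markers of double-positive thymocytes, 11 of 12 fell, against 29.8% of all genes tested. Their mean log2 levels were 5.06 to 5.17 in GFP-positive and 7.38 to 7.80 in GFP-negative libraries, within GFP-negative cells lowest in library 3. Although labelled DN4, GFP-negative cells held Cd4 transcripts at 190 to 256 FPKM, against 6.13 to 10.3 FPKM in GFP-positive cells, while Il2ra and Cd44, which mark earlier stages, lay at 0.633 to 4.48 FPKM in all libraries. Of the 7 genes on the list for the DN2 and DN3 stages, 3 rose (Notch1, Ptcra and Hes1), against 24.4% of all genes tested. The other 4, among them Il2ra and Cd44, did not pass. Summed levels of the list were 124 to 125 FPKM in GFP-positive and 62.7 to 80.2 FPKM in GFP-negative libraries. Most of each sum was Notch1, which averaged 91.6 FPKM in GFP-positive and 43.8 FPKM in GFP-negative cells. All 8 gamma-delta T cell genes measured rose, against 24.4% of all genes tested. Their summed levels were 142 to 144 FPKM in GFP-positive libraries and 18.3, 18.5 and 49.8 FPKM in GFP-negative libraries. Marker sums of the B cell, innate lymphocyte, myeloid, erythroid and stromal lists were at most 10.8 FPKM in a library, and Pax5, Cd14, Krt5, Foxn1 and Pdgfra were listed at 0 in all 6. The 10.8 FPKM was the innate lymphocyte sum of GFP-positive library 1, against 2.09 and 2.57 FPKM in GFP-positive libraries 2 and 3. In GFP-negative libraries 1 to 3 the innate lymphocyte sum was 3.94, 1.08 and 0.878 FPKM. The B cell sum was 2.24 to 3.60 FPKM in GFP-positive and 7.10 to 9.71 FPKM in GFP-negative libraries, and the myeloid sum 0.214 to 0.366 FPKM in GFP-positive and 2.24 to 2.95 FPKM in GFP-negative libraries. The part of cell cycle, stage or lineage mixture in the changes of the nucleolar factors was not tested.

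**Figure D5:**
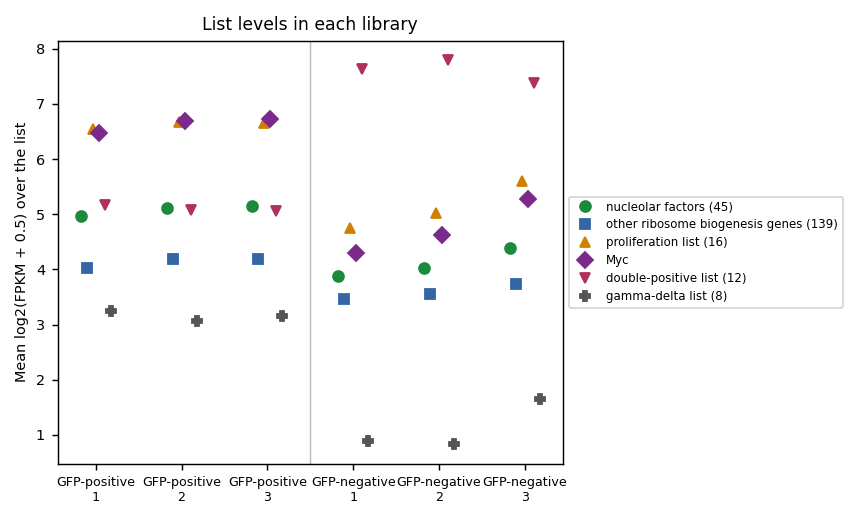
Mean log2(FPKM + 0.5) of gene lists in each library, 3 GFP-positive left and 3 GFP-negative right; the markers of a library are shifted sideways for legibility. The nucleolar factors, the other ribosome biogenesis genes, the proliferation list and Myc are higher in GFP-positive libraries and, within GFP-negative cells, highest in library 3, while the double-positive list runs the other way.

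Promoters of the factors were read from RefSeq (GRCm38.p6), which held an entry for 40 of the 45, in windows from 250 bases before to 50 bases after each start site. Fbl, Rrp12, Bop1, Rrs1 and Npm1 had none. The E-box CACGTG, the letters that Myc and its partner Max bind, was found on either strand in 8 of 40 factors (20.0%): Rrn3, Utp18, Utp20, Wdr43, Tsr1, Pes1, Nop2 and Mybbp1a. It was found in 12.3% of tested genes with an entry and in 7.15% of all windows. The letters CCGGAAG, which ETS factors bind, were found in 16 of 40 factors (40.0%), in 23.2% of tested genes and in 8.86% of all windows. The letters TGCGCA, the core of the site of NRF1, were found in 5 of 40 factors (12.5%), in 17.4% of tested genes and in 7.76% of all windows. Matches of different motifs were counted apart even where they overlapped. The 3 windows of Wdr12 held neither the E-box nor CCGGAAG, and 1 held TGCGCA. A match or its absence describes these letters in these windows and was not tested against the changes.

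The promoters of 4 factors with large increases and of 2 factors with an E-box are shown so that the motifs can be read in place, with E-box and CCGGAAG (or its complement CTTCCGG) in capitals. Each stretch is 150 bases of the coding strand, written 5′ to 3′ and ending at the start site, or 8 bases before it for Nhp2. Nhp2 (chr11:51619615-51619764, plus strand), with the largest increase of all 45, and Gar1 (chr3:129831397-129831546, minus strand) hold CCGGAAG on opposite strands. Polr1b (chr2:129100846-129100995, plus strand), with the second largest increase, holds neither motif. Nolc1 (chr19:46075697-46075846, plus strand) holds CCGGAAG near the start site.
Nhp2: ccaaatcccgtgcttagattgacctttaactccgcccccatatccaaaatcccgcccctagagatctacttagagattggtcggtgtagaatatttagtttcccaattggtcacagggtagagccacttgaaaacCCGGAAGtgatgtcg
Polr1b: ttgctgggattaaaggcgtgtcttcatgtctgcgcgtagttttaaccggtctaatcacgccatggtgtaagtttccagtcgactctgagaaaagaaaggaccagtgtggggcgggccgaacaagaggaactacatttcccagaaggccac
Gar1: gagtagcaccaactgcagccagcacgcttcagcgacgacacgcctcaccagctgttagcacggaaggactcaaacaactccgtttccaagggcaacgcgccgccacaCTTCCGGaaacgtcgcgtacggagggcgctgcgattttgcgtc
Nolc1: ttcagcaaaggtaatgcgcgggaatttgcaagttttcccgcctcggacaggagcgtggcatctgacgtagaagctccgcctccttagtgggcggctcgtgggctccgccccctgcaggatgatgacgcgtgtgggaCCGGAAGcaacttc

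An E-box lies upstream in Rrn3 (chr16:13780549-13780698, plus strand), the initiation factor of RNA polymerase I with a log2 fold change of 0.53, and in Nop2 (chr6:125131733-125131882, plus strand), the large subunit methyltransferase with 1.20, which also holds CCGGAAG. A further E-box of Rrn3 and its matches of CCGGAAG lie outside this stretch or run across its end.
Rrn3: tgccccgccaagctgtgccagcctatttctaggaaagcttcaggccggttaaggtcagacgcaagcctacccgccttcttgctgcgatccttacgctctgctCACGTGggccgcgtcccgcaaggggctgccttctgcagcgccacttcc
Nop2: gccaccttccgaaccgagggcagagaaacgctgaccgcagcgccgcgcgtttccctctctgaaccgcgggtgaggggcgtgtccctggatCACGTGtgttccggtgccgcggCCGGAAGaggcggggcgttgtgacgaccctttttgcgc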

How the data were processed

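Total RNA was depleted of ribosomal RNA, per the labels' protocols. TopHat2, Cuffdiff and the build mm10 are named in the submitters' processing notes; the sources used here state no versions, settings or strand. Per the file headers, the deposited tables hold FPKM values of each library and a q-value per gene, made by the authors in a run over 6 libraries and another over 4 that left out library 1 of each group.

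Groups were compared with limma 3.58.1 in R 4.3.3 (trend and robust) on log2(FPKM + 0.5), over 11465 genes whose mean FPKM reached 1, leaving out 24 genes of status HIDATA. Benjamini-Hochberg adjustment ran over all genes tested, with a threshold of 0.05. The scale understates the change of low genes. The fit was checked on simulated data. Ratios of levels were compared with SciPy 1.17.1. Positions and overlaps come from GENCODE M21, which matched 97.3% of identifiers.

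Members, lists and the rule for named genes were chosen with earlier results of these data known. The rule gave per class the 3 largest changes per direction, the highest level and every factor not called higher. For other genes of the pathway it gave the 4 largest per direction. Further genes were named after their values were seen. A further deposited table, on Gata3, was not used.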

Additional observations from a re-analysis of the deposited data

How the results depend on the processing

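Alternatives were pseudocounts of 0.1 and 1, no filter on low values, a minimum mean of 5 FPKM, upper quartile scaling, quantile normalization, a limma fit with neither trend nor robust estimation, a replicate block, each library left out, the 4-library table and the same 4 libraries of the 6-library table. Across them 37 to 42 of the 45 factors were higher and 1 was lower, with medians of 1.01 to 1.25; leaving out single libraries gave 37 to 41 higher. Of 720 values of single factors, 695 kept direction and side of the threshold, 23 lost the call, 2 gained it and 0 changed sign. The calls lost were those of Nop56, Polr1e, Rrn3, Rrp1 and Wdr74. The median of all genes was 0.0569 under quantile normalization, against -0.08 with the values as deposited; the cause was not tested. Of the other pathway genes, 1 was lower in the 4-library table and 1 in the same 4 libraries, against 3, with fewer libraries in these fits. Deviations of same-numbered libraries from their group means correlated at 0.0940, -0.0209 and 0.0610, and not every library correlated best with its own number. With 3 libraries per group these correlations cannot decide whether same-numbered libraries share a mouse or a sort, which the labels do not state. The replicate block gave 2929 higher and 3461 lower genes, and 41 higher and 1 lower factor. Unknown depth limits what can be said of the lowest genes.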

Other observations

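Several of the factors are host genes of small nucleolar RNAs. Within the bodies of 7 of the 45 factors (15.6%), on the same strand, GENCODE places 21 snoRNA genes, against 1.87% of tested genes in the annotation that hold at least 1. Nop56 holds 5, Nop58 holds 4, Wdr43, Gnl3 and Ncl hold 3 each, Tsr1 holds 2 and Dkc1 holds 1. Of the 21 snoRNA genes, 19 were listed at 0 in all 6 libraries, where 0 can be a failed estimate for so short a gene. Snord70 in Nop58 was listed at 356956 FPKM in GFP-positive library 3 and at 0 in the other libraries. Gm24451 in Nop56, which shares 100 bases with its exons, was listed at 80.2 and 56.0 FPKM in GFP-positive libraries 2 and 3 and at 0 in the others.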
